A study of Homo sapiens with 8 samples.

Results

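The RB and E2F family genes are the pocket protein genes RB1, RBL1 and RBL2 together with E2F1, E2F2, E2F3, E2F4, E2F5, E2F7 and E2F8. They were chosen by name, as every RefSeq transcript of these 10 genes in a table of 24812 transcripts, which gave 14 transcripts. All 10 genes were among the 14528 genes that could be named in that table. The cells were SQ20B, an established line from a human head and neck squamous cell carcinoma, grown in serum-supplemented DMEM, in normoxia (4 samples) or in 0.5% O2 for 16 h (4 samples, hypoxia). The labels do not give the oxygen level of the normoxic cultures. Nothing in the labels says that the samples of a condition came from separate cultures, though the paper calls the samples biological replicates. All samples were of this 1 line.

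RNA was measured by poly(A)-selected RNA sequencing, and levels are in FPKM, the fragments assigned to a transcript scaled by its length and by the size of the library, so that genes can be set side by side. The table gives 1 FPKM value per condition, made by the authors from its 4 samples, so a gene has 2 values and no spread between samples. No test over samples could be run on these values and no SD can be attached to them, and the authors' own test in the table was not used, so every difference below is a description. The change is log2((hypoxia FPKM + 0.1)/(normoxia FPKM + 0.1)) of the FPKM summed over the transcripts of a gene, and the added 0.1 makes the changes of low genes somewhat smaller. A gene is called higher or lower in hypoxia where it differed by at least 1.5-fold, a log2 change of 0.58 in size, and genes were compared with the 12106 genes that had a mean FPKM of at least 0.5.

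The retinoblastoma pathway controls entry into S phase. E2F proteins bind DNA, mostly as dimers with a DP partner, at the promoters of genes for DNA replication and cell division, and the pocket proteins bind E2Fs and hold these genes down until cyclin-dependent kinases phosphorylate them. E2F1, E2F2 and E2F3 are activators that bind RB1, E2F4 and E2F5 work mainly as repressors with RBL1 and RBL2, and E2F7 and E2F8 are atypical E2Fs that repress without a DP partner or a pocket protein. RBL1 or RBL2 with E2F4 or E2F5 and the MuvB proteins form the DREAM complex of quiescent cells. The pathway is inactivated in many carcinomas, and several of its own members are E2F targets.

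The promoter sequences of the members are shown because several members are known E2F targets and because hypoxia-inducible factors bind an element with known letters. RefSeq windows of 250 bases before to 50 bases after the start (build GRCh38.p14) were matched by symbol for 8 of the 10 members, and those of E2F5 and E2F8 were not analysed here. The only RB1 window lay 172699 bases inside the gene and was left out, so 7 windows lay at the start of the gene. Below are those of 4 members with E2F letters and, for contrast, of RBL2 and E2F7, which had none. Capitals mark the E2F letters searched (TTTCCCG or TTTCGCG or TTTGCCG or TTTGGCG) and the core of a hypoxia response element, HRE (ACGTG or GCGTG), each on either strand, so that a match on the reverse strand is printed as its complement. The windows are RBL1 at chr20:37095948-37096247 (minus strand), E2F1 at chr20:33686336-33686635 (minus strand), E2F2 at chr1:23531184-23531483 (minus strand), E2F3 at chr6:20401629-20401928 (plus strand), RBL2 at chr16:53434221-53434520 (plus strand) and E2F7 at chr12:77065520-77065819 (minus strand).
RBL1: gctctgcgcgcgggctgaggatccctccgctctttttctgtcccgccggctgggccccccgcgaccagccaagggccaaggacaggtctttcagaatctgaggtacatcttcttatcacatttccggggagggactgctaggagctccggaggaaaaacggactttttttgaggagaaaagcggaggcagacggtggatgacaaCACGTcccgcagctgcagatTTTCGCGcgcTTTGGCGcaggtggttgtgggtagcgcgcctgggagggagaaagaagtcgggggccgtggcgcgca
E2F1: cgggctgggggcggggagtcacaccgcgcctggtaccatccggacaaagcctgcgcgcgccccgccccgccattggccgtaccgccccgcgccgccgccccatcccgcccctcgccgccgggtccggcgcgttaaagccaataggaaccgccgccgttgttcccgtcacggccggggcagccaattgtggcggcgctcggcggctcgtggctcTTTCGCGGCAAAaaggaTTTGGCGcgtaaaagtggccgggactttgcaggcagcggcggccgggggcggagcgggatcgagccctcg
E2F2: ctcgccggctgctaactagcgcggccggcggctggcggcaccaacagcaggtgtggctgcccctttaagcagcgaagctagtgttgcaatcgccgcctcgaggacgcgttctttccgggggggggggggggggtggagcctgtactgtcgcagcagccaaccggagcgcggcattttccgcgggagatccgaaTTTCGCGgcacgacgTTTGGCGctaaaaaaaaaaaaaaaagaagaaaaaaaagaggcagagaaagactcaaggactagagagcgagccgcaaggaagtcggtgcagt
E2F3: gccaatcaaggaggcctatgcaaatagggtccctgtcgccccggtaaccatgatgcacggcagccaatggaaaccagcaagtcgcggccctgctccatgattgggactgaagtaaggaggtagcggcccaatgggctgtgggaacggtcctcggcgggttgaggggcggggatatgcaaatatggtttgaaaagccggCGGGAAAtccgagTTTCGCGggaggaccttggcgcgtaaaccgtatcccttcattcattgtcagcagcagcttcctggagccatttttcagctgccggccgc
RBL2: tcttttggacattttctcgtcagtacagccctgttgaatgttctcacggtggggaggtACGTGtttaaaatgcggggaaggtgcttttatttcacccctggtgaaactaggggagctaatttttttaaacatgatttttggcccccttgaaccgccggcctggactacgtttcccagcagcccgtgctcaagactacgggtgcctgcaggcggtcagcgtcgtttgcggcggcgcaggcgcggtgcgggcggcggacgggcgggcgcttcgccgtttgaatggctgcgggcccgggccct
E2F7: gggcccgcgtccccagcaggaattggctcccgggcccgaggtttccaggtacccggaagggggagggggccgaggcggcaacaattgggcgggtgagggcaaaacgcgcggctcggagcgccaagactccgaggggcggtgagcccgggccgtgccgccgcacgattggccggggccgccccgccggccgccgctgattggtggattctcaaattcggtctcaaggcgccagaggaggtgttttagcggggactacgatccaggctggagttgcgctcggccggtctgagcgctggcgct

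Of the 7 windows, 4 (RBL1, E2F1, E2F2 and E2F3) held at least 2 matches to the E2F letters and 3 (RBL2, E2F4 and E2F7) held none. Among all 35116 promoter windows of the same length, 8.67% held at least 1 match and 0.681% held at least 2. These were not restricted to gene starts as the 7 were, and the windows inside RB1, RBL2 and E2F3 held no E2F letters. The matches lay close to the start in all 4 windows, with first bases 26 and 16 bases before it in RBL1, 37, 32 and 20 in E2F1, 57 and 42 in E2F2, and 52 and 39 in E2F3. The first E2F1 matches lie on opposite strands and overlap by 2 letters. HRE letters were present in the RBL1, RBL2 and E2F4 windows, and 48.4% of all windows held them. The letters of a cell cycle homology region, CHR (TTTGAA or TTCGAA), an element bound by MuvB, were in the RBL2 and E2F3 windows and in 16.4% of all windows. A second E2F3 window, 1735 bases inside the gene, had no E2F letters and held CACGTG, which reads as an HRE core on both strands. A match describes letters and does not show that a factor bound there.

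**Figure D1:**
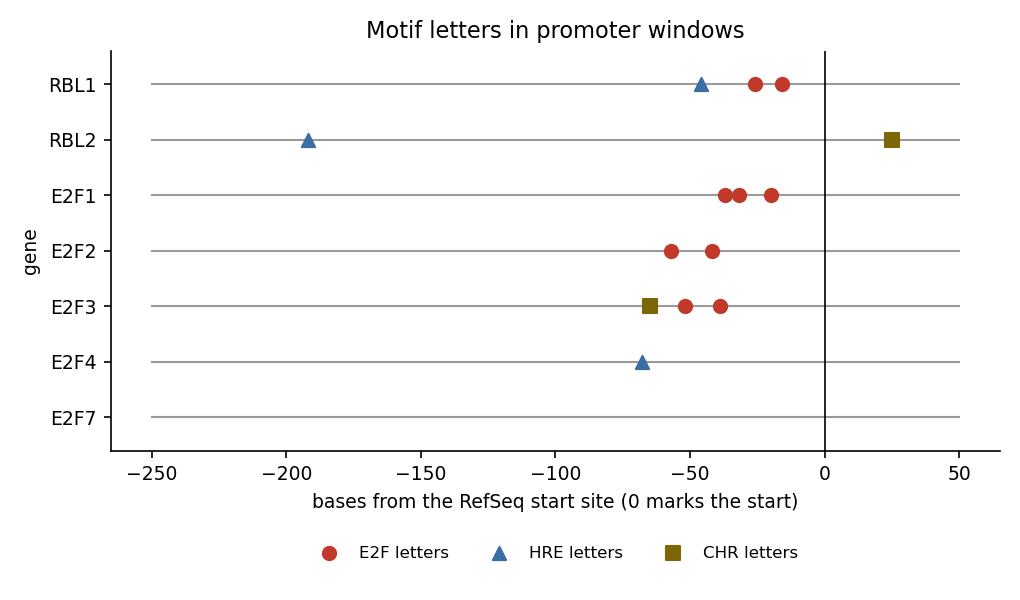
Matches to the E2F, HRE and CHR letters in the RefSeq promoter windows of 7 family genes, by distance in bases of the first matched base from the start site (x axis; 250 bases before to 50 after), 1 line per gene. The E2F matches of RBL1, E2F1, E2F2 and E2F3 sit between 57 and 16 bases before the start, and the lines of RBL2, E2F4 and E2F7 hold none.

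All 10 members passed the limit of 0.5 FPKM, so no member is missing from the counts that follow. In hypoxia 5 members were lower by at least 1.5-fold (RBL1, E2F1, E2F2, E2F4 and E2F5), 2 were higher (RBL2 and E2F7), and 3 lay within 1.5-fold (RB1, E2F3 and E2F8). Among all genes past the limit, 11.2% were lower and 9.95% were higher by the same rule, 21.2% in all. The lower calls of RBL1, E2F1 and E2F4 lay just past 1.5-fold and were lost under each of 3 rescalings tried. The higher call of RBL2 lay as close (log2 change 0.61, and 0.59 with a pseudocount of 1), but the rescalings moved its change upward. With changes centred on the median of all genes, 2 members were lower and 2 higher, against 1060 and 1499 of all 12106 genes. With the FPKM columns scaled to equal sums, 1 was lower and 2 higher, against 599 and 2221 of 12127. With quantile-normalized columns, 2 were lower and 2 higher, against 1022 and 1401 of 12107. The median log2 change was -0.53 over the members and -0.07 over all genes. The members' changes were moderate in size, from -0.85 to 0.68, against a 10th and a 90th percentile of -0.62 and 0.58 over all genes. In RNA from whole cultures, fewer cells in a phase of the cell cycle and less RNA per cell cannot be told apart.

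**Figure D2:**
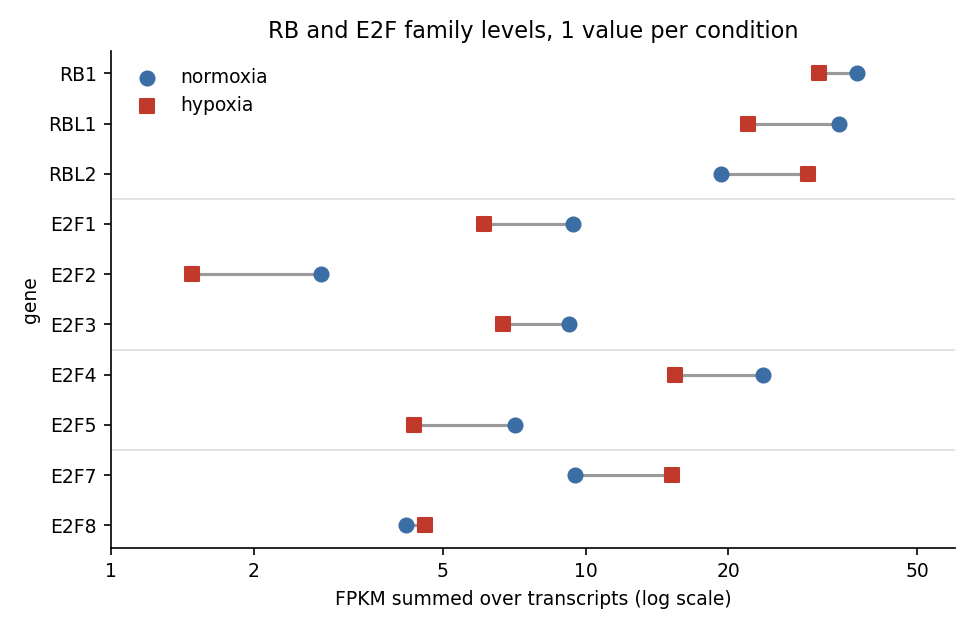
Level of each family gene (y axis) in normoxia (circles) and hypoxia (squares) as FPKM summed over transcripts on a log scale (x axis), 1 value per condition with no error. RBL2 and E2F7 sit to the right in hypoxia by at least 1.5-fold, E2F8 sits slightly to the right, and the other 7 genes sit to the left.

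The pocket protein genes went in different directions. RB1 (NM_000321, chromosome 13, 48877882 to 49056026 of hg19), the retinoblastoma tumour suppressor, was at 37.4 FPKM in normoxia and 31.1 FPKM in hypoxia, a log2 change of -0.26. It was the most abundant member in both conditions, and its change was at percentile 32.9 of all genes. RBL1 (chromosome 20, 35624754 to 35724403), which encodes p107 and is itself a target of E2F, was at 34.2 FPKM in normoxia and 22.0 FPKM in hypoxia, 1.55-fold lower (log2 change -0.64, percentile 9.47), and within 1.5-fold under the rescalings (-0.57 to -0.41). RBL2 (NM_005611, chromosome 16, 53467889 to 53525560 in a GRCh37 annotation, the table's merged locus running to 53537170), which encodes p130, the pocket protein that accumulates in quiescent cells, was at 19.3 FPKM in normoxia and 29.5 FPKM in hypoxia, 1.53-fold higher (log2 change 0.61, percentile 90.7).

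RBL1 and RBL2 thus changed places. RBL1 was at 1.78 times the level of RBL2 in normoxia and at 0.745 times in hypoxia, and RB1 was at 1.94 times the level of RBL2 in normoxia and at 1.06 times in hypoxia. Of the summed FPKM of the pocket protein genes, RBL2 made up 21.2% in normoxia and 35.7% in hypoxia, RBL1 37.7% and 26.6%, and RB1 41.1% and 37.7%. The sum itself moved little, from 90.8 to 82.6 FPKM (1.10-fold lower). Ratios and shares within a condition are the same when a column is multiplied by a constant, and with quantile-normalized columns the hypoxic ratio of RBL1 to RBL2 was 0.733.

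The activator genes were all at lower values in hypoxia. E2F1 (NM_005225, chromosome 20, 32263291 to 32274210), which drives S phase entry and can also promote apoptosis, was at 9.41 FPKM in normoxia and 6.12 FPKM in hypoxia, 1.53-fold lower (log2 change -0.61, percentile 10.2), and within 1.5-fold under the rescalings (-0.54 to -0.39). E2F2 (NM_004091, chromosome 1, 23832919 to 23857712) was the lowest member in both conditions, at 2.77 FPKM and 1.48 FPKM, 1.81-fold lower (log2 change -0.85, percentile 4.11). This was the largest change of the 10 as reported, but not with equal sums (-0.64, against 0.90 for E2F7 and 0.84 for RBL2) or with a pseudocount of 1 (-0.60, against 0.63 for E2F7). E2F3 (chromosome 6, 20402136 to 20493945) was at 9.21 FPKM in normoxia and 6.71 FPKM in hypoxia, a log2 change of -0.45 that did not reach 1.5-fold. Summed, the activators were at 21.4 FPKM in normoxia and 14.3 FPKM in hypoxia. Of the 4 members with E2F letters in their windows, RBL1, E2F1 and E2F2 were called lower, and E2F3 was lower within 1.5-fold. Of the 3 members whose windows held none, E2F4 was called lower too (log2 change -0.62), and RBL2 and E2F7 were called higher. The calls of RBL1, E2F1 and E2F4 were lost under the rescalings, and a link between letters and change was not tested.

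The repressor E2Fs that pair with RBL1 and RBL2 were also lower. E2F4 (NM_001950, chromosome 16, 67226067 to 67232821), the main E2F of quiescent cells and of DREAM, was at 23.6 FPKM in normoxia and 15.4 FPKM in hypoxia, 1.54-fold lower (log2 change -0.62, percentile 10.00), and within 1.5-fold under the rescalings (-0.55 to -0.40). E2F5 (chromosome 8, 86089389 to 86129387 in a GRCh37 annotation, the table's merged locus running to 86132643) was at 7.11 FPKM in normoxia and 4.34 FPKM in hypoxia, 1.63-fold lower (log2 change -0.70, percentile 7.35), and within 1.5-fold with equal sums (-0.48). Both DREAM-type E2Fs were thus lower in the condition in which RBL2, their pocket protein partner, was higher. E2F4 was the most abundant E2F in normoxia and remained at 2.51 times the level of E2F1 in both conditions.

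The atypical E2Fs were the only E2F members not at lower values. E2F7 (NM_203394, chromosome 12, 77415025 to 77459360), a repressor of E2F targets, was at 9.48 FPKM in normoxia and 15.2 FPKM in hypoxia, 1.60-fold higher (log2 change 0.68, percentile 92.4). E2F8 (chromosome 11, 19245609 to 19263202), which can form dimers with E2F7, was at 4.18 FPKM and 4.58 FPKM, a log2 change of 0.13. E2F7 was at 2.27 times the level of E2F8 in normoxia and at 3.33 times in hypoxia.

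The makeup of E2F transcripts shifted accordingly. E2F1 and E2F7 stood at nearly the same level in normoxia (E2F1 at 0.993 times E2F7) and apart in hypoxia (0.402 times), and the summed activators went from 1.57 to 0.722 times the summed atypical E2Fs. E2F7 alone made up 14.4% of the summed E2F FPKM in normoxia and 28.3% in hypoxia, close to the 28.5% of E2F4, whose normoxic share was 35.9%. Together the atypical E2Fs made up 20.8% in normoxia and 36.8% in hypoxia, the activators 32.5% and 26.6%, and E2F4 with E2F5 46.7% and 36.6%. The sum of the 7 E2F genes was 65.8 FPKM in normoxia and 53.8 FPKM in hypoxia. In normoxia the order of the 10 genes by level was RB1, RBL1, E2F4, RBL2, E2F7, E2F1, E2F3, E2F5, E2F8 and E2F2, and in hypoxia it was RB1, RBL2, RBL1, E2F4, E2F7, E2F3, E2F1, E2F8, E2F5 and E2F2. Without values of single samples it cannot be said which neighbours in these orders differ beyond their spread.

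**Figure D3:**
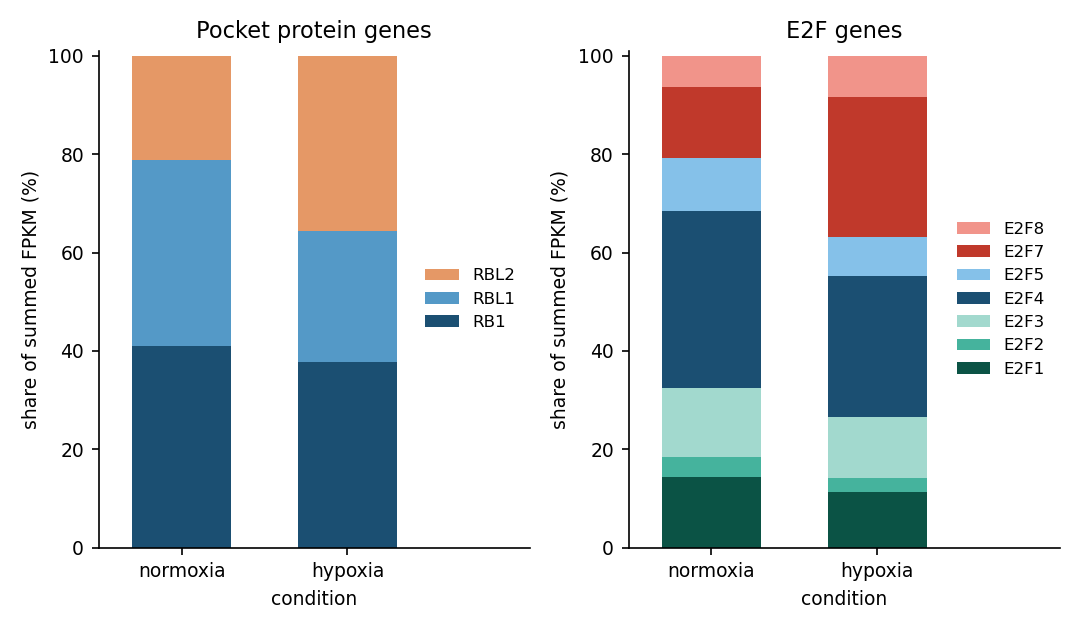
Share of each gene in the summed FPKM (y axis, %) of the 3 pocket protein genes (left) and the 7 E2F genes (right) in normoxia and hypoxia, 1 value per condition. RBL2 went from 21.2% to 35.7% of the pocket protein sum, and E2F7 from 14.4% to 28.3% of the E2F sum.

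Of the 14 transcripts, 6 were lower by at least 1.5-fold, 2 were higher and 6 lay within, against 24.9% of all 18190 transcripts past the limit called in either direction. Of the members, 6 had 1 transcript each, and the 4 with 2 transcripts (RBL1, E2F3, E2F5 and E2F8) had both moving the same way. The RBL1 transcripts NM_002895 and NM_183404 were at 20.5 and 13.7 FPKM in normoxia and at 12.6 and 9.36 FPKM in hypoxia (log2 changes -0.70 and -0.54), so that only the first passed 1.5-fold. The E2F3 transcripts NM_001949 and NM_001243076, which encode E2F3a and E2F3b, were at 4.57 and 4.65 FPKM in normoxia and at 3.16 and 3.55 FPKM in hypoxia (log2 changes -0.52 and -0.38). The share of NM_001949 in E2F3 was 49.6% in normoxia and 47.1% in hypoxia, so neither E2F3 form dominated in either condition.

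The E2F5 transcripts NM_001083588 and NM_001083589 were at 2.81 and 4.30 FPKM in normoxia and at 1.63 and 2.71 FPKM in hypoxia (log2 changes -0.75 and -0.65). Those of E2F8, NM_024680 and NM_001256372, were at 2.65 and 1.53 FPKM in normoxia and at 2.88 and 1.70 FPKM in hypoxia. Shares within a gene moved little, from 59.9% to 57.4% for NM_002895 of RBL1, from 60.5% to 62.5% for NM_001083589 of E2F5 and from 63.4% to 62.9% for NM_024680 of E2F8. Cufflinks divides reads that fit several transcripts of a gene by estimation, which makes values of single transcripts less certain than the sum.

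Several member loci share sequence with other genes. The loci that the table gives for RBL2 and E2F5 run past the ends of these genes into their neighbours. RBL2 shares 609 exon bases with AKTIP on the opposite strand (29.8 FPKM in normoxia, 26.8 FPKM in hypoxia), and E2F5 shares 991 exon bases with RBIS on the opposite strand (165 and 141 FPKM). Other opposite-strand genes, not analysed here, share 721 exon bases with RBL2, 213 with RBL1, 133 with E2F5 and 7 with E2F8. Their part in the values of these members was not tested. The libraries kept strand, but whether the counting used it is not given in the sources used here, so reads of RBL2 and AKTIP, or of E2F5 and RBIS, could be mixed in these values. The log2 change of AKTIP was -0.15 and that of RBIS, far above E2F5 in level, was -0.23, neither larger in size than the 0.23 by which scaling to equal sums moves every gene. The part of AKTIP in the RBL2 value and that of RBIS in the E2F5 value were not tested. E2F3 has 2 annotated pseudogenes and E2F4 has 1, with which reads could be shared.

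The 1.5-fold calls that held in every setting tried were those of RBL2, E2F7 and E2F2. Over 9 settings (other pseudocounts, limits and scalings of the columns, and the most abundant transcript in place of the sum) the log2 change of RBL2 ranged from 0.59 to 0.84, that of E2F7 from 0.63 to 0.90 and that of E2F2 from -0.89 to -0.60, all past 1.5-fold. Of the settings, the limits on FPKM leave a gene's change as it is. Centring and equal sums move every change upward, so they could cost lower calls and not higher ones. Quantile normalization also moved RBL2 (0.74) and E2F7 (0.78) upward. Only a pseudocount of 1 lowered the changes of RBL2 (0.59) and E2F7 (0.63). No rescaling thus put these 2 higher calls at risk. The lower call of E2F5 was lost with equal sums alone, those of RBL1 and E2F4 under all 3 rescalings, and that of E2F1 under these and with a pseudocount of 1 (-0.55), and the sign of every member's change held in all 9. The FPKM columns summed to 536005 in normoxia and 458431 in hypoxia, and scaling them to equal sums moved the median of all genes to 0.15. Under that scaling the members' median was -0.31, still below that of all genes. The split of all calls moved with it, from 1204 higher and 1361 lower genes to 2221 and 599.

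**Figure D4:**
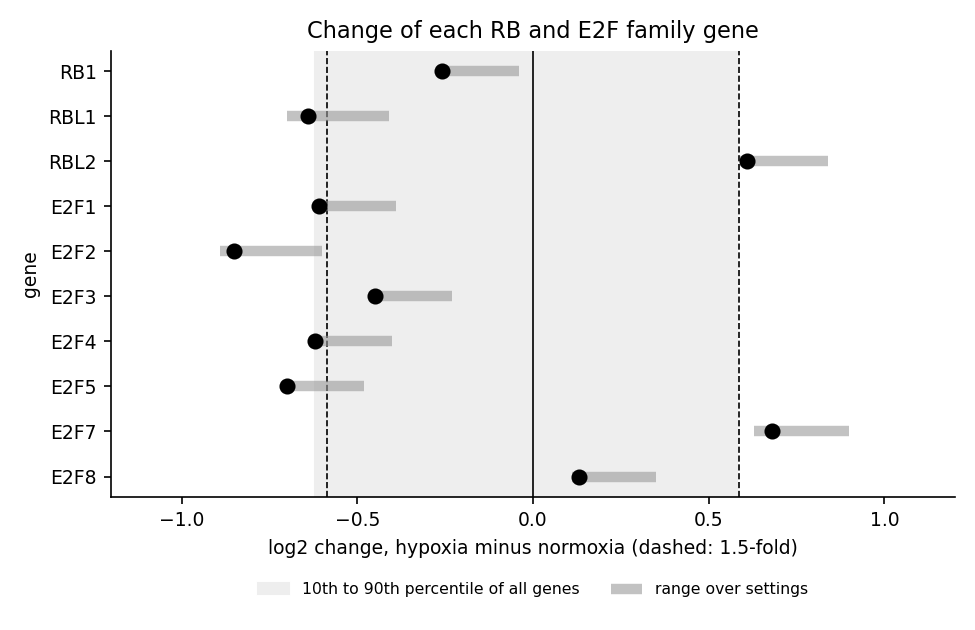
Log2 change from normoxia to hypoxia (x axis) of each family gene (y axis; points), with the range over 9 settings (thick grey lines), the 1.5-fold limits (dashed) and the 10th to 90th percentile of all genes (shaded). The ranges of RBL2, E2F7 and E2F2 stay past the dashed lines, and no range crosses 0.

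Neither analysed DP partner passed 1.5-fold. TFDP1, which encodes the DP1 partner of E2Fs, was at 53.4 FPKM in normoxia and 45.9 FPKM in hypoxia, TFDP2 was at 4.62 and 5.41 FPKM, and TFDP3 was not analysed here. The log2 changes of TFDP1 (-0.22, and 0.01 with equal sums) and TFDP2 (0.22) were of opposite sign. In TFDP1 the coding transcript NM_007111 was at 23.8 and 17.6 FPKM (-0.43) and the noncoding NR_026580 at 29.6 and 28.3 FPKM (-0.07). E2F6, a repressor that acts through polycomb proteins rather than pocket proteins, was at 8.72 and 5.38 FPKM, 1.61-fold lower (log2 change -0.69), a call lost with equal sums. Of the 8 genes for the MuvB core and its partners, 2 were lower by at least 1.5-fold, none was higher, and their median was -0.11 (0.11 with equal sums). LIN52, the subunit through which MuvB holds the pocket protein, was at 16.1 and 8.34 FPKM (log2 change -0.94), and FOXM1, the factor that joins MuvB at genes of G2 and M phase, was at 16.0 and 10.5 FPKM (-0.59). The call of FOXM1 was lost under all 3 rescalings and that of LIN52 held. The other MuvB genes had log2 changes of -0.46 (LIN9), -0.11 (RBBP4), -0.10 (LIN37), -0.06 (LIN54), 0.19 (MYBL2) and 0.34 (MYBL1), and those of RBBP4, LIN37 and LIN54 lay above 0 with equal sums.

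Upstream of the pocket proteins, CCND1 and CCND2 of the D-type cyclin genes were lower and the CDK inhibitor gene CDKN1A was higher. Of the 9 genes for RB kinases and their cyclins, 3 were lower by at least 1.5-fold (33.3%, against 11.2% of all genes). None was higher, and the median was -0.42 (-0.19 with equal sums). With equal sums, and with quantile-normalized columns, 1 was lower, CCND1, against 599 of 12127 and 1022 of 12107 genes. CCND1 (cyclin D1) was at 75.7 FPKM in normoxia and 40.3 FPKM in hypoxia (log2 change -0.91), CCND2 at 127 and 75.8 FPKM (-0.75), and CCNA2 (cyclin A2), an E2F target, at 111 and 65.8 FPKM (-0.75). CCND3 (-0.42) and CDK4 (-0.48) were lower within 1.5-fold, and CDK6 (-0.09, above 0 with equal sums), CDK2 (0.02), CCNE1 (0.02) and CCNE2 (0.23) were close to their normoxic values. The cyclin E genes, which are E2F targets, did not share the direction of CCNA2.

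Of the 7 CDK inhibitor genes, 1 was higher by at least 1.5-fold (14.3%, against 9.95% of all genes) and none was lower. The median was 0.23, and with equal sums CDKN2B was higher too (0.61), as were 2221 of all 12127 genes. CDKN1A, which encodes p21, was at 16.6 FPKM in normoxia and 34.4 FPKM in hypoxia, 2.07-fold higher (log2 change 1.05). The log2 changes of the others were 0.39 (CDKN2B), 0.30 (CDKN1C, near 1 FPKM), 0.23 (CDKN2D), 0.16 (CDKN2C), 0.08 (CDKN1B) and -0.28 (CDKN2A). CDKN2A encodes p16, which inhibits CDK4 and CDK6, and was at 15.8 and 12.9 FPKM summed over 4 transcripts. Those that encode p16 were not told apart here. Of the 11 corepressor genes that RB1 and its relatives recruit, SIN3A, a scaffold for histone deacetylases, passed 1.5-fold (7.09 and 11.6 FPKM, log2 change 0.70). It was joined by SMARCA2 when centred (0.59), where 1499 of all 12106 genes were higher. With equal sums it was joined by SMARCA2 (0.74) and ARID4A (0.63), and 2221 of all 12127 genes were higher. SMARCA2 (0.52), ARID4A (0.40), KDM5A (0.32) and SMARCA4 (0.20) were above 0, and SUV39H1 (-0.57), HDAC2 (-0.40), HDAC1 (-0.24), SIN3B (-0.17), HDAC3 (-0.13) and RBBP7 (-0.11) were below 0, of which SIN3B, HDAC3 and RBBP7 lay above 0 with equal sums and HDAC1, HDAC3 and RBBP7 with quantile-normalized columns. The median of the corepressors was -0.11, and it was 0.12 with equal sums and 0.14 with quantile-normalized columns. The 1 higher call as reported was 9.09% of the list, near the 9.95% of all genes. With equal sums the median of all genes was 0.15.

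The G1/S targets of E2F, which encode replication proteins and enzymes of nucleotide synthesis, differed little as a group. Of 38 listed genes 37 were analysed (RRM2 was not analysed here). By at least 1.5-fold, 3 were lower (8.11%, against 11.2% of all genes) and 1 was higher (2.70%, against 9.95%), and 33 lay within. Their median log2 change was -0.17, with 30 below 0 and 7 above, but it was 0.06 with equal sums and 0.02 with quantile-normalized columns, so the direction of the list depends on the scaling. With equal sums none was lower and TYMS and POLE were higher, against 599 lower and 2221 higher of all 12127 genes. The lowest changes were those of CDC25A, a phosphatase that activates CDK2 (20.3 and 12.5 FPKM, log2 change -0.69), the helicase subunits GINS3 (23.0 and 14.6 FPKM, -0.65) and GINS2 (107 and 69.7 FPKM, -0.62), and MCM10 (29.3 and 19.7 FPKM, -0.57). The highest were those of TYMS (thymidylate synthase; 41.1 and 91.8 FPKM, 1.16), POLE (4.73 and 6.23 FPKM, 0.39), UHRF1 (7.32 and 8.48 FPKM, 0.21) and TK1 (thymidine kinase; 22.9 and 25.7 FPKM, 0.16). TYMS stood apart from its list, and the other genes of the list lay between -0.69 and 0.39.

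The G2/M genes, the late part of the programme that DREAM, MuvB and FOXM1 control, held the 4 lowest changes of the pathway lists. Of 19 genes 9 were lower by at least 1.5-fold (47.4%, against 11.2% of all genes), none was higher and 10 lay within. Their median was -0.52, with all 19 below 0, and it was -0.30 with equal sums, and -0.33 with quantile-normalized columns, where 17 were below 0 and CDK1 and TOP2A were above in both. CDC20, an activator of the anaphase-promoting complex, was at 94.6 FPKM in normoxia and 29.7 FPKM in hypoxia (log2 change -1.67), and the mitotic kinase PLK1 was at 10.7 and 3.87 FPKM (-1.45). CCNB1 (cyclin B1) was at 376 and 168 FPKM (-1.16) and AURKA (Aurora kinase A) at 189 and 87.7 FPKM (-1.11). The smallest differences were those of TOP2A (-0.08), CDK1 (-0.13), NUSAP1 (-0.25) and UBE2C (-0.29). The part of the share of cells in each cell cycle phase in the values of E2F1, E2F2, RBL1 and the other members was not tested.

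Among the 6 apoptotic targets of E2F1 reported here, 1 was higher by at least 1.5-fold (16.7%, against 9.95% of all genes). None was lower, and the median was 0.13. With equal sums 3 were higher (median 0.34), as were 2221 of all 12127 genes (median 0.15). BCL2L11, which encodes the BH3 protein BIM, was at 2.51 FPKM in normoxia and 4.63 FPKM in hypoxia (log2 change 0.86). The log2 changes of the others were 0.49 (APAF1), 0.46 (BBC3), -0.19 (PMAIP1, above 0 with equal sums), -0.22 (TP73) and -0.31 (CASP8), with BBC3 and TP73 below 1 FPKM in both conditions.

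**Figure D5:**
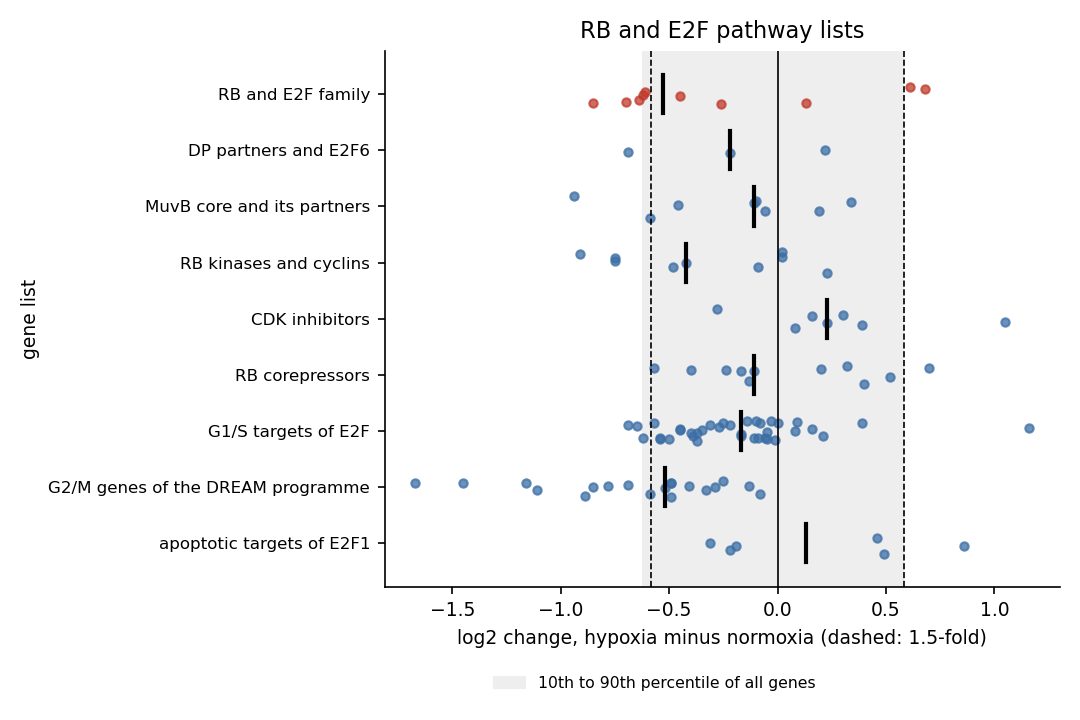
Log2 change from normoxia to hypoxia (x axis; dashed lines at 1.5-fold) of each gene past 0.5 FPKM in the family and in 8 pathway lists (y axis), with medians as black bars and the 10th to 90th percentile of all genes shaded. The G2/M genes have a median of -0.52 and all lie below 0 (17 of 19 with the columns scaled to equal sums), and the G1/S targets have a median of -0.17 (0.06 with equal sums).

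The labels could be checked on marker genes. All 9 analysed targets of hypoxia-inducible factor were higher in hypoxia, with log2 changes from 1.02 (VEGFA) to 5.58 (NDRG1). Of the squamous epithelial markers 6 of 7 were analysed and detected, led by KRT5 (398 and 442 FPKM), CDH1 (61.1 and 82.6 FPKM), KRT17 (50.5 and 56.2 FPKM) and TP63 (42.8 and 44.6 FPKM), with SFN at 16.9 and 14.6 FPKM and KRT6A at 5.10 and 3.26 FPKM. Of 8 fibroblast, immune and endothelial markers only CD68 was analysed here (2.36 and 2.86 FPKM).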

How the data were processed

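Polyadenylated RNA of SQ20B cells was sequenced from 4 samples in normoxia and 4 in hypoxia. Groups came from the source labels. The authors made poly(A)-selected stranded libraries and, per the submitters' processing notes and the methods, used STAR 2.3.0.1 and the Cufflinks suite 2.1.1 with RefSeq hg19. The deposited FPKM values are the authors' own, 1 per transcript and condition over its samples. The deposited log2 fold changes, test statistics, p-values and q-values of the authors' comparison were not used. The methods give an average depth over samples and not the depth of each one, and intervals and floors that need it are left out.

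RefSeq identifiers were paired with symbols through the GRCh38.p14 annotation, used for names only (24293 of 24812 rows, 97.9%). FPKM was summed per gene, and log2 changes were computed with a pseudocount of 0.1, a mean FPKM limit of 0.5 and a fold of 1.5. A planned fit for replicate values could not be applied. Overlaps with other genes were read from a GRCh37 annotation (GENCODE, lifted over). Gene symbols in 35116 promoter windows were matched to the members, and motifs were counted as exact letters on both strands.

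The members and gene lists were chosen with earlier results of these data known. The list of apoptotic targets is given without 2 genes that are not reported here. Named genes were all members and their transcripts, every gene past the limit in lists of up to 11 genes, and the 4 highest and 4 lowest changes in longer lists, except that further genes of the hypoxia targets are given by range. Alternatives to the pseudocount, limit, scaling, fold and summing were tried, and the procedure was tested on simulated data. The tools were Python 3.11.15, matplotlib 3.10.9, scipy 1.17.1, pandas 2.3.3 and numpy 2.4.6.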

Additional observations from a re-analysis of the deposited data

How the results depend on the processing

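Of 90 changes of single members under the alternatives, 72 kept their direction and their side of the fold limit. Another 18 kept their direction and no longer passed it, and none turned. Part of this was fixed in advance. The limits on FPKM leave every member's change as it is, and a fold of 2 cannot turn a direction. For the 6 members with 1 transcript, the most abundant transcript equals the sum. The count of 7 members past 1.5-fold was 4 with changes centred on the median of all genes (2 higher, 2 lower), 3 with columns scaled to equal sums, 4 with quantile-normalized columns (2 higher, 2 lower) and 0 at a fold of 2. The count of 8 member transcripts was 5 with a pseudocount of 1, 5 when centred, 3 with equal sums and 0 at a fold of 2. The 4 G1/S targets past 1.5-fold became 2 when centred, 2 with equal sums, 2 with quantile-normalized columns and 1 at a fold of 2, and the 9 G2/M genes became 4 at a fold of 2. Over all genes, 2565 past 1.5-fold became 705 at a fold of 2. The split into higher and lower calls, 1204 and 1361, was 1499 and 1060 when centred. It was 2221 and 599 with equal sums and 1401 and 1022 with quantile-normalized columns. Centring and equal sums add nearly the same amount to every change by construction, a larger pseudocount lowers the changes of low genes, and a fold of 2 is a stricter limit. For quantile-normalized columns the cause was not tested. No paired analysis was possible because the table holds 1 value per condition, and for the same reason no sample could be left out in turn. The methods give an average depth per sample, but the fragments counted behind each value are not given. The low levels of E2F2, CDKN1C, BBC3 and TP73 limit what their changes can show.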
